A study of Mus musculus with 2 samples.

Results

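Cathepsins are a group of proteases found mainly in the endosomal and lysosomal system. The 10 mouse genes described here, Ctsa, Ctsb, Ctsc, Ctsd, Ctse, Ctsh, Ctsk, Ctsl, Ctss and Ctsz, were taken as a family of lysosomal proteases, among 12393 genes with a probe set of their own on the array. Every probe set assigned to one of these symbols alone was used, 16 in all. The family was chosen by its values in these same arrays, because Ctsh, Ctsc and Ctsk differed between the clones while Ctsb, Ctsd and Ctsl gave bright signals that differed less. The ratios below are therefore a description with no test.

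Expression was measured on 1 Affymetrix array for each of 2 stably transfected clones of the mouse osteosarcoma line LM8. The hPHD4 clone carried a full-length human PHD4 cDNA in pcDNA3.1, and the control clone received the vector alone. G418 at 0.5 mg/ml selected both, and 5 µg of total RNA from each went into the biotin-labelled target. PHD4 is a membrane-bound prolyl hydroxylase related to the oxygen sensors that mark hypoxia-inducible factors for degradation. Each group is 1 clone, so a difference caused by the transgene and a difference between any 2 clones cannot be told apart. No probe set belonged to P4htm, the mouse gene for PHD4, alone (0 found), and the human transgene was not followed.

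Most cathepsins are made as inactive proenzymes, tagged with mannose 6-phosphate in the Golgi, carried to the lysosome and activated there at acid pH. Cysteine cathepsins (Ctsb, Ctsc, Ctsh, Ctsk, Ctsl, Ctss and Ctsz) use an active-site cysteine, Ctsd and Ctse are aspartic proteases, and Ctsa is a serine carboxypeptidase. In bone, cathepsin K is best known as the collagen-degrading enzyme of osteoclasts, and secreted cathepsins of tumour cells can cleave extracellular matrix. The measured quantity was the MAS5 signal of each probe set, deposited on a log2 scale and given here as linear signals, with differences as log2 ratios of the hPHD4 clone over the control clone. Signals of different probe sets are not on one scale of abundance, so no gene's level is set against another's. A probe set was called measured when it lay above a floor on both arrays, the 40th percentile of the non-control probe sets, with linear signals of 81.1 in the hPHD4 clone against 67.8 in the control clone. Of the 16 probe sets 13 were measured, and they covered 9 of the 10 genes. Ctss was the gene without one.

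With 1 array per clone there was no replicate error. The only error available was how far probe sets of the same gene disagreed, pooled over 2800 genes with at least 2 measured probe sets. Its SD on the log2 scale was 0.40 for dim, 0.37 for middle and 0.28 for bright genes. It leaves out variation between cultures, clones, labelling reactions and arrays.

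Ctsh, Ctsc and Ctsk were higher in the hPHD4 clone, and the mean ratios of the other 6 measured cathepsin genes lay within 1.5-fold. For Ctse this mean joins a probe set 1.76-fold higher with one 1.67-fold lower. Ctsl and Ctsa, 1.45-fold and 1.44-fold lower, lay just inside that limit and ranked 498 and 510 from the bottom of all measured genes. Thus 3 of 9 measured members passed 2-fold upward and 0 downward. Over all 7452 measured genes the shares were 1.89% and 0.98%, and after quantile normalization they were 1.34% and 1.14%. Ctsh and Ctsc, 2 of the 9, also passed 3-fold upward, as did 0.282% of measured genes. The choice of the family used this contrast, so nothing is read from the difference between these shares. The median log2 ratio of the 9 genes was -0.03, beside 0.03 over all measured genes. As the RNA came from whole cultures, fewer cells expressing a gene and less of its RNA per cell cannot be told apart.

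**Figure D1:**
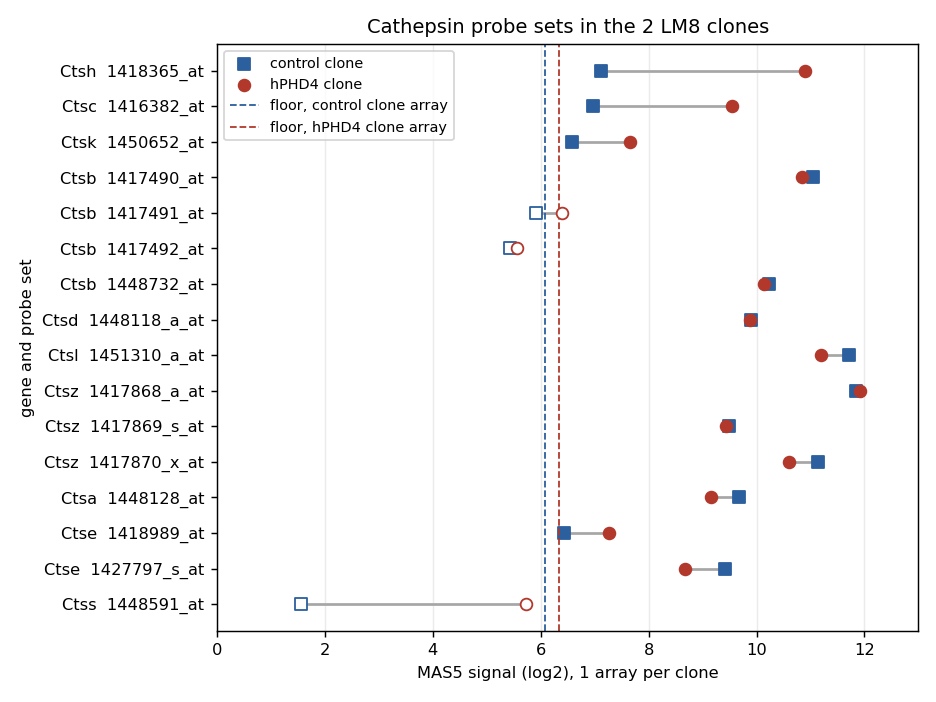
Signal of each of the 16 cathepsin probe sets (log2 MAS5 signal, horizontal axis) in the hPHD4 clone (circles) and the control clone (squares), 1 array each; filled symbols are probe sets measured on both arrays and open symbols those that were not, and dashed lines are the 2 floors. The 3 uppermost probe sets, of Ctsh, Ctsc and Ctsk, are higher in the hPHD4 clone; Ctsk is dim in both clones, at log2 signals of 7.66 and 6.57.

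Ctsh encodes cathepsin H, a cysteine protease that acts mainly as an aminopeptidase. Its single probe set gave a linear signal of 1903 in the hPHD4 clone against 138.8 in the control clone. The log2 ratio was 3.78, a 13.7-fold higher signal, and it ranked 1 among the 7452 measured genes. The control signal lay 1.03 log2 units above its floor, so the size of the ratio rests on a dim value. When the floor was raised to the 60th percentile the control signal counted as dim, and Ctsh was at least 8.49-fold higher.

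Ctsc encodes cathepsin C, or dipeptidyl peptidase 1, which removes dipeptides from the amino terminus of proteins and activates the granule serine proteases of leukocytes. Its single probe set gave 751.8 in the hPHD4 clone against 124.9 in the control clone. The log2 ratio was 2.59, a 6.02-fold higher signal, ranking 4 among all measured genes. Its control signal also lay near the floor, 0.88 log2 units above it. The bound under that higher floor was at least 3.35-fold.

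Ctsk encodes cathepsin K. Its single probe set gave 202.2 in the hPHD4 clone against 95.3 in the control clone, a log2 ratio of 1.08 (2.12-fold). Both signals were dim, with the control signal 0.49 log2 units above its floor. Ctsk ranked 107 among measured genes. Its ratio was 2.68 times the probe set SD of dim genes, against 10.3 times for Ctsh and 7.06 times for Ctsc with the SD of middle genes. Brightness was taken over both arrays, so the high hPHD4 signals raised the class of Ctsh and Ctsc. The 3 genes were chosen for their ratios, so these multiples are a description and not a test. After quantile normalization the log2 ratio of Ctsk was 0.94 and after loess correction 0.95, both short of 2-fold, which left 2 members past that threshold. Under the 60th percentile floor neither Ctsk nor the other two were measured in both clones, and 0 members were past it. All 3 genes rest on 1 probe set each, so no second probe set of these genes checks them.

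Ctsb, Ctsd and Ctsl gave bright signals in both clones. Ctsb encodes cathepsin B, which is both an endopeptidase and a carboxypeptidase. Its 2 measured probe sets gave 1828 and 1124 in the hPHD4 clone against 2110 and 1197 in the control clone. The log2 ratios of -0.21 and -0.09 had a mean of -0.15, smaller than the SD of 0.28 between probe sets of bright genes. A further 2 probe sets of Ctsb were dim, at 84.1 and 47.5 in the hPHD4 clone against 60.1 and 43.3 in the control clone. When these were let in by a floor at the 20th percentile the mean became 0.08, on the other side of 0.

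Ctsd encodes cathepsin D, the main aspartic protease of lysosomes. Its signal was 936.7 in the hPHD4 clone against 953.6 in the control clone, a log2 ratio of -0.03, the nearest to 0 of the genes with 1 measured probe set. Ctsl encodes cathepsin L, a broad endopeptidase that is also secreted as a proenzyme by transformed cells. Its signal was 2329 in the hPHD4 clone against 3374 in the control clone. The log2 ratio of -0.53, a 1.45-fold lower signal, equals -1.93 times the SD between probe sets of bright genes.

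Set against each other, the mean log2 ratio was 2.48 for Ctsh, Ctsc and Ctsk and -0.24 for Ctsb, Ctsd and Ctsl. The difference of 2.72 is a 6.59-fold unequal change. The probe set SDs combine to 0.26 for this difference, with no part for culture or array. A shift of a whole array cancels in it. All 9 pairwise differences were 2-fold or more on the deposited scale. After quantile normalization and after loess correction 8 were, as Ctsk against Ctsd fell to 0.95 and 0.96. As deposited they ran from 1.11 for Ctsk against Ctsd to 4.31 for Ctsh against Ctsl. The 6 genes were sorted by their ratios, so the separation itself is fixed by the choice.

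**Figure D2:**
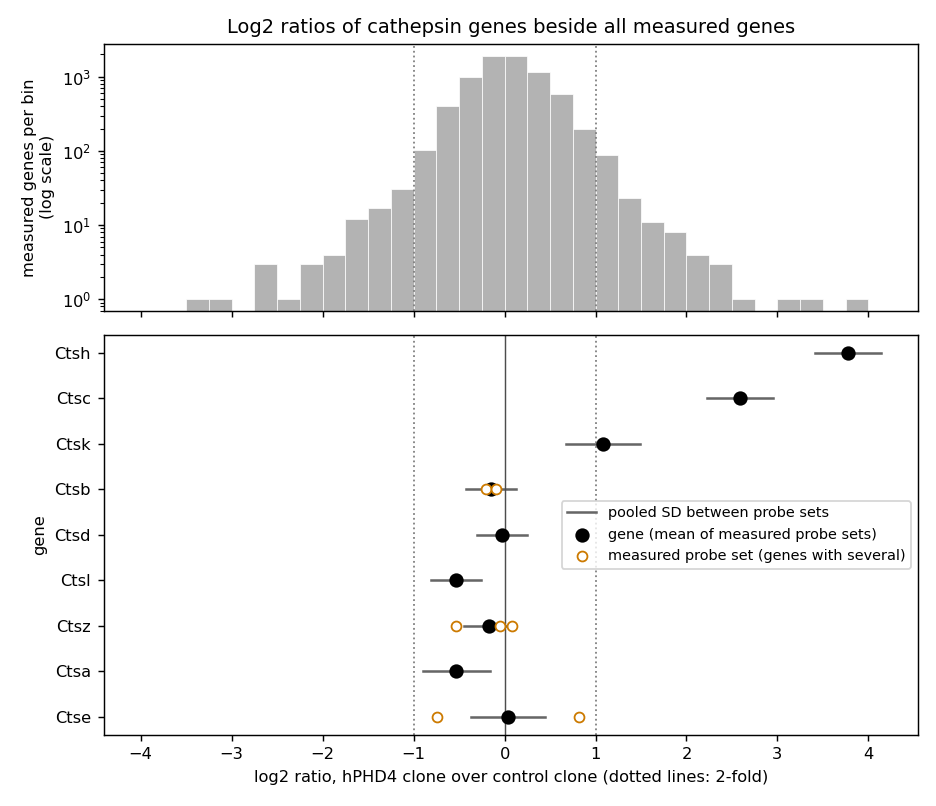
Log2 ratios of the hPHD4 clone over the control clone: the number of measured genes per bin of 0.25 (upper panel, log scale) and the 9 measured cathepsin genes (lower panel; filled points are genes, open points single probe sets of genes with several, and bars the pooled SD between probe sets on each side). Ctsh at 3.78 and Ctsc at 2.59 lie in the far right tail, Ctsk at 1.08 lies just past the 2-fold line, and the means of the remaining genes lie within 1.5-fold, that of Ctse between probe sets at 0.82 and -0.74.

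Among the other members, Ctsz encodes cathepsin Z (also called X), a carboxypeptidase that can bind integrins. Its 3 probe sets gave 3871, 693.3 and 1563 in the hPHD4 clone against 3656, 718.8 and 2269 in the control clone. Their log2 ratios were 0.08, -0.05 and -0.54, with a mean of -0.17 and an SD of 0.33. The last of these is a probe set of the _x_at kind, which can hybridize with related sequences; without the _x_at and _s_at probe sets the value was 0.08.

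Ctsa encodes cathepsin A, also called protective protein because it stabilises neuraminidase 1 and beta-galactosidase in a lysosomal complex. Its signal was 569.3 in the hPHD4 clone against 822.1 in the control clone, a log2 ratio of -0.53 (1.44-fold lower), or -1.45 probe set SDs. Neu1, of that complex, gave 155.1 and 154.4, a ratio of 0.01, on the 1 measured of its 3 probe sets. Its other probe sets were under the floor in both clones. Glb1, encoding the beta-galactosidase, gave 769.8 in the hPHD4 clone against 629.1 in the control clone, a ratio of 0.29.

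Ctse encodes cathepsin E, an aspartic protease found mainly in endosomes and the endoplasmic reticulum of epithelial and immune cells, and so is lysosomal only in a loose sense. Its 2 probe sets disagreed. One gave 153.2 in the hPHD4 clone against 86.8 in the control clone, a ratio of 0.82. The other, of the _s_at kind, gave 407.9 and 682.3, a ratio of -0.74. The mean of 0.04 therefore hides an SD of 1.10, where dim genes had 0.40, and the direction for Ctse is not settled by these arrays.

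Ctss encodes cathepsin S, which degrades the invariant chain of MHC class II in antigen-presenting cells. Its single probe set gave 53.0 in the hPHD4 clone against 2.96 in the control clone. Both values were under the floor, so no ratio is given.

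By catalytic class, 3 of the 6 measured cysteine cathepsins had ratios above 0, with a range of -0.53 to 3.78. Of the 2 aspartic cathepsins Ctsd lay at -0.03 and Ctse has no settled direction, and the serine cathepsin Ctsa was below 0. Of the 9 measured members 6 were cysteine cathepsins, among them all 3 genes more than 2-fold higher. Their genes lie on different chromosomes, Ctsh on 9, Ctsc on 7 and Ctsk on 3, where the medians of all measured genes were 0.01, 0.19 and 0.02. Ctsd shares chromosome 7 with Ctsc.

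Of the genes next to these loci, those measured gave smaller ratios. As Ctsh, Ctsc and Ctsk were chosen for high ratios, this was largely fixed in advance and nothing is read from it. Names and order came from RefSeq gene models of assembly GRCm38.p6, passing over genes with no probe set of their own. Beside Ctsh, Tmed3 lay at -0.91 and Zic1 at -0.36, while Rasgrf1 and Adamts7 were not measured. Beside Ctsc, Tyr lay at 0.40 and Tmem135 at 0.58, and Nox4 and Rab38 were not measured. Beside Ctsk, Setdb1 lay at 0.45 and Arnt, the partner subunit of hypoxia-inducible factors, at 0.34. On the other side of Ctsk, Ctss and Hormad1 were not measured. Tyr, Tmem135, Setdb1 and Arnt also had probe sets that were not measured. The log2 differences of those probe sets ran from -0.59 in Tmem135 to 1.47 in Arnt.

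Upstream sequence is shown for genes on both sides of the contrast, because lysosomal genes are known to carry E-boxes bound by TFEB and its relatives. The RefSeq promoter table held windows for 7 of the 10 genes (8 windows, 2 of them of Ctsa) and none for Ctsb, Ctse and Ctsh. The 250 bases before each start were searched on both strands for CACGTG (the E-box), TCACGTGA (the core of the CLEAR element, which contains an E-box) and TGANTCA (the AP-1 site). Of all 32851 windows in the table, 6.02% held the first, 0.785% the second and 6.75% the third. Capitals mark these motifs. The windows of Ctsd and Ctsk are shown whole and that of Ctsc up to the outermost annotated start of the gene. The window of Ctsl and that of the second start of Ctsa lie inside the annotated gene, and 30 bases around the E-box are shown for each.
Ctsc, chr7:88277835-88278023, plus strand: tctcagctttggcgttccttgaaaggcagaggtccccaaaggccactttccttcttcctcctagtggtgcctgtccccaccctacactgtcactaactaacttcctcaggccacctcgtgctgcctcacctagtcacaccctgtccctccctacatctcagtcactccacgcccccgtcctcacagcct
Ctsk, chr3:95498960-95499209, plus strand: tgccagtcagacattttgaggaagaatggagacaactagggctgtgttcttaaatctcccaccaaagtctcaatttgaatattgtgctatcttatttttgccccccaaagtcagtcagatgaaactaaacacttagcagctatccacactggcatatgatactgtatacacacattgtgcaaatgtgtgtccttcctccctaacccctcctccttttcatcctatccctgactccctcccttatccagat
Ctsd, chr7:142387828-142388077, minus strand: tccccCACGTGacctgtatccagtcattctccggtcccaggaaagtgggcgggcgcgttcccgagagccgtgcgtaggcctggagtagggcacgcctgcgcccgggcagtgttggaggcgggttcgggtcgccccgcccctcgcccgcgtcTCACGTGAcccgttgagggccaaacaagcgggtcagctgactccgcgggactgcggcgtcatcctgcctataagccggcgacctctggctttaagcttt
Ctsa, chr2:164833743-164833772, plus strand: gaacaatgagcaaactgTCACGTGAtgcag
Ctsl, chr13:64370739-64370768, minus strand: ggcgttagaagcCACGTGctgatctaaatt

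An E-box was found in windows of 3 of the 7 genes, Ctsa, Ctsd and Ctsl. Ctsd held 2, of which the one starting 98 bases before the start lies within a CLEAR core. In Ctsa the E-box, also within a CLEAR core, begins 12 bases before one of its 2 starts. These 3 genes had log2 ratios of -0.53, -0.03 and -0.53. The windows of Ctsc, Ctsk, Ctss and Ctsz held no CACGTG, and of these Ctsz had a log2 ratio of -0.17. Ctsh and Ctsb had no window, and a relation between motif and ratio was not tested. The AP-1 motif was found in 0 of the 8 windows. A match is a description of the letters in the window, and no binding was measured.

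Other enzymes and relatives of the family were mostly undetected. Of 14 further cathepsins and relatives on the array, 12 were under the floor in both clones, among them Ctsf, Ctsg, Ctsw and the placental cathepsins. Napsa, encoding the aspartic protease napsin A, was the 1 measured, at 94.7 in the hPHD4 clone against 151.2 in the control clone (1.60-fold lower). Tinagl1, which encodes a cathepsin B-like secreted protein without protease activity, exceeded the floor only on the hPHD4 clone's array, at 163.5 against 22.4.

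Inhibitors of the cathepsins were described next, with members counted at 1.5-fold, a threshold passed by 8.94% of all measured genes upward and 5.22% downward. Of 16 cystatins and related inhibitors on the array 5 were measured, 0 passed the threshold upward and 1 downward. Cst6, a secreted cystatin, was not measured in both clones, at 103.1 with hPHD4 and 48.8 in the control, the latter under the floor. The downward member was Cst3, encoding cystatin C, the main secreted inhibitor of cysteine cathepsins. Its signal was 3196 in the hPHD4 clone against 5873 in the control clone, a log2 ratio of -0.88 (1.84-fold lower, 1 probe set). Serpinb6a, an intracellular serpin that inhibits cathepsin G, was at 0.15, and Fetub, of the cystatin superfamily, at 0.28. Cstb, encoding cystatin B of the cytosol, was chosen after its values were seen. Its 2 probe sets lay at -0.45 and 0.03, a mean of -0.21. The median of the 5 was 0.15, and it was -0.21 with the floor at the 60th percentile.

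Of 11 activators, cofactors and substrates on the array 9 were measured, with a median of 0.01. Lgmn, encoding legumain, which processes several cathepsin proenzymes, gave 1776 in the hPHD4 clone against 1706 in the control clone, a ratio of 0.06. None of the 9 was at least 1.5-fold higher (0), and 1 was lower, beside 8.94% and 5.22% of all measured genes. The lower gene was Cd74, the invariant chain cleaved by cathepsin S, at 116.6 against 252.5, a ratio of -1.11.

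The sorting machinery showed no member past 1.5-fold in either direction (0 of 13 measured, of 16 on the array). Over all measured genes 8.94% passed it upward and 5.22% downward. The list holds the mannose 6-phosphate receptors, the enzymes that make the tag, and retromer. Its ratios ran from -0.36 to 0.42, with a median of 0.03. Sort1, the receptor sortilin, and Vps35, of retromer, were nearest the median at 0.03 and 0.05. A further 2 genes exceeded the floor only with hPHD4 and so have no ratio. The brightest signals of Sorl1, a sorting receptor, were 162.0 and 47.2, and those of Cln3, a lysosomal membrane protein, 126.6 and 67.5.

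Lysosomal membrane proteins and subunits of the proton pump had a median of -0.04 over 24 measured genes, of 25 on the array. Among them 2 passed 1.5-fold upward and 1 downward, where 8.94% and 5.22% of all measured genes did. Nothing is read from counts this small. Atp6v1f, a subunit of the pump's cytosolic part, gave 2507 in the hPHD4 clone against 1553 in the control clone, a ratio of 0.69. Atp6v1h, another subunit of that part, gave 566.5 and 994.7, a ratio of -0.81. The pump subunits thus lay on both sides. Atp6v0a1, of the membrane part, was at 0.92 on the 1 measured of its 4 probe sets, and the other three lay between -0.57 and 0.87 with a signal under the floor in at least 1 clone. With the floor at the 20th percentile all 4 were measured and the ratio was 0.30. Tmem9 and the pump subunit gene Atp6v1a were nearest the median, at -0.02 and -0.05.

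Of the transcription factors of the TFEB family, 3 were on the array and 2 were measured. Tfeb, a master regulator of lysosomal genes, gave 156.6 in the hPHD4 clone against 180.0 in the control clone, a ratio of -0.20. Mitf, which drives Ctsk in osteoclasts, gave 116.9 and 249.8 on the 1 measured of its 2 probe sets, a ratio of -1.10. Its other probe set was under the floor in both clones, at 16.6 and 6.40, and with dim probe sets raised to a common floor the ratio of the gene was -0.55. Tfec was under the floor in both.

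**Figure D3:**
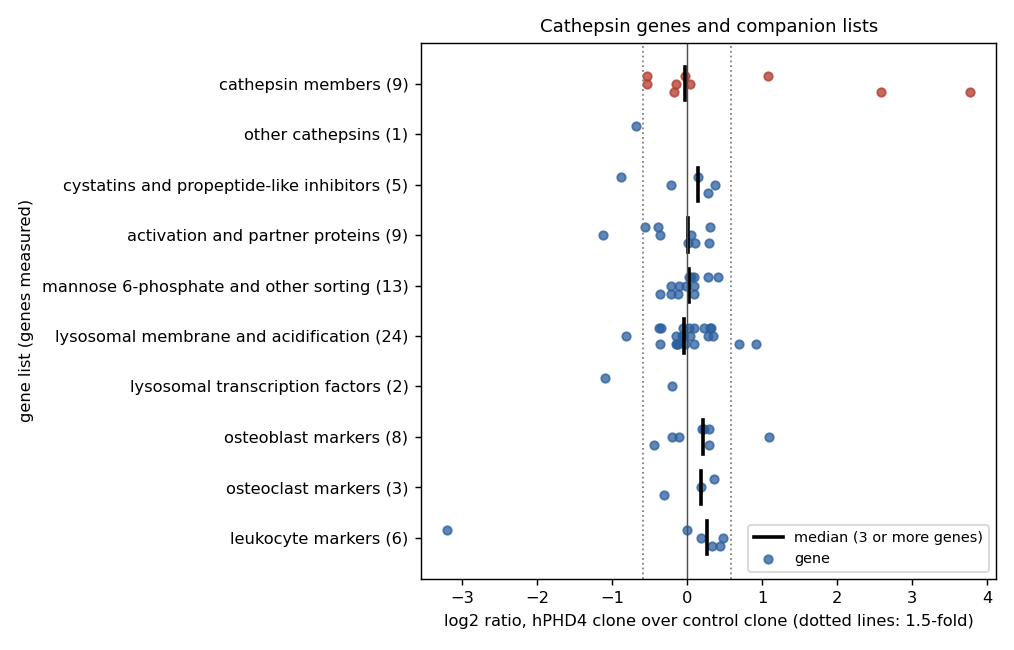
Log2 ratios of the hPHD4 clone over the control clone (horizontal axis) for the measured genes of each list (points; number in brackets; vertical spread only separates points), with medians as black bars for lists of 3 or more and dotted lines at 1.5-fold. Medians of the cathepsin, inhibitor, partner, sorting and membrane lists lie between -0.04 and 0.15, while Ctsh at 3.78 and Ctsc at 2.59 lie beyond every other gene shown on the right.

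The cells were checked against markers of their own type and of other cells that express cathepsins. Of 9 osteoblast markers on the array 8 were measured, with Col1a2, Sparc, Alpl and Sp7 bright in both clones, and their median ratio was 0.22. Ibsp, encoding bone sialoprotein, was the 1 marker past 1.5-fold, at 1.09 (2.13-fold higher), with its 2 probe sets at 1.56 and 0.61. Over all measured genes 8.94% passed 1.5-fold upward. Of 10 osteoclast markers 3 were measured, Tcirg1, Nfatc1 and Tnfrsf11a, with ratios between -0.31 and 0.36. Acp5, the tartrate-resistant acid phosphatase that defines osteoclasts, was far under the floor at 8.46 in the hPHD4 clone against 8.40 in the control clone, and 3 more, Calcr, Ocstamp and Itgb3, were under it in both. Oscar and Mmp9 exceeded the floor only with hPHD4, at brightest signals of 120.5 against 43.6 and 98.3 against 53.9, and Car2 only in the control, at 26.3 against 71.8. Of 16 leukocyte markers 6 were measured, and 8, Ptprc (CD45) and Itgam among them, were under the floor in both clones. Cd14 and C1qb exceeded the floor only in the control, at brightest signals of 77.2 against 119.7 and 61.3 against 76.3. The measured leukocyte markers Cd68, Csf1r, Adgre1, Lyz2 and Laptm5 lay between 0.00 and 0.48, while Fcer1g was at -3.20. The 1 probe set of Fcer1g gave 106.8 in the hPHD4 clone, 0.40 log2 units above the floor, against 979.8 in the control clone. Summed linear signals of the osteoblast list were 63508 in the hPHD4 clone against 75105 in the control clone. Those of the osteoclast list were 1336 in the hPHD4 clone against 1113 in the control clone. For the leukocyte list they were 1315 and 1989, and without Fcer1g 1208 and 1009, so that 1 gene sets the direction of the sum. Such sums add probe sets that are not on one scale, and serve only to set a list against itself. The floor itself was higher on the hPHD4 clone's array, at 81.1 against 67.8. The osteoclast and leukocyte sums hold many dim probe sets, so their direction is not read as a difference in marker RNA. No gene of these 3 marker lists was listed at a log2 signal of 0. The part of other cell types in the cathepsin ratios was not tested.

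**Figure D4:**
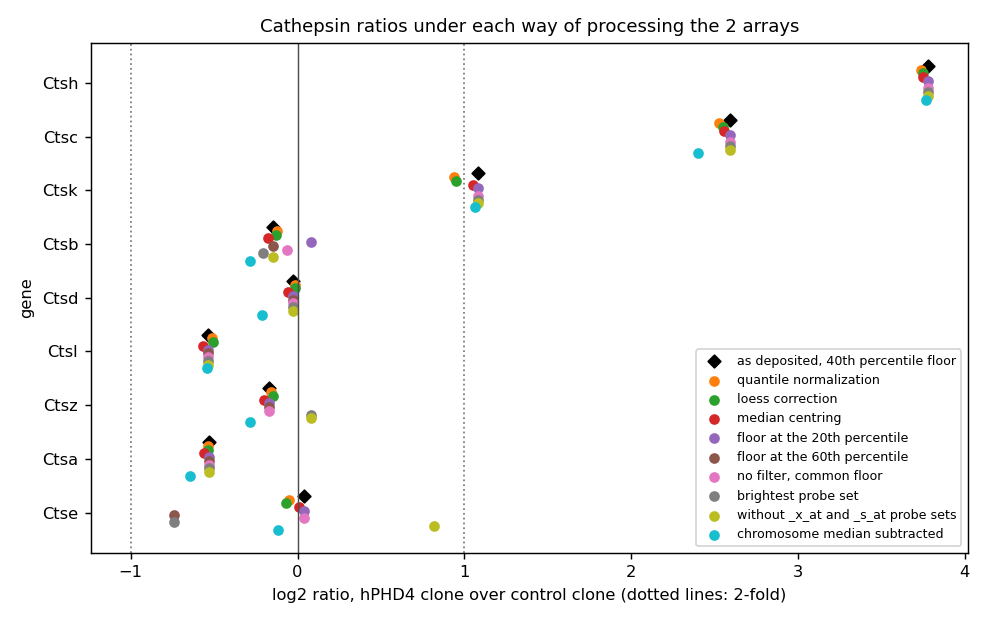
Log2 ratio of each measured cathepsin gene under the reported processing (diamonds) and 9 alternatives (circles), with dotted lines at 2-fold. Ctsh stays between 3.73 and 3.78 and Ctsc between 2.40 and 2.59 where measured, Ctsk crosses the 2-fold line at 0.94 and 0.95, and Ctse ranges from -0.74 to 0.82.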

How the data were processed

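The authors deposited log2 signals for each probe set, computed with MAS5 per the submitters' processing notes. Its version and settings were not given in the sources used here, and detection calls were not used. The values themselves settled the log base and scaling: linear signals had a 2% trimmed mean of 500.2 on both arrays. Each array held 22690 probe sets, of which 20380 had 1 symbol in the platform annotation, 691 several and 1555 none (controls apart). The latter 2 kinds were left out. A gene's value was the mean log2 ratio over its measured probe sets. No test was made, with 1 array per clone, and the number of arrays limits the precision. Members and lists were chosen with earlier results of these data known. All members were named, as were genes of the companion lists (not the marker lists) past 1.5-fold, up to 2 nearest each list's median, and 2 neighbours on each side of Ctsh, Ctsc and Ctsk. The gene steps were tested on simulated data with known changes, all larger than that of Ctsk. The simulation held no differences between clones or cultures. Python 3.11.15, numpy 2.4.6, pandas 2.3.3 and statsmodels 0.14.6 were used. Alternatives covered scaling, floor, filter, probe set choice and fold threshold (loess span 0.3); subtraction of chromosome medians, pairwise differences under each setting and the leukocyte sum without Fcer1g were added after seeing the data.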

Additional observations from a re-analysis of the deposited data

How the results depend on the processing

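Of the values that answer the comparison and could be computed, 80 of 81 under the 11 alternatives stayed within the limit used for them. The exception was the number of cathepsin genes at least 2-fold higher, which was 0 with the floor at the 60th percentile, because Ctsh, Ctsc and Ctsk then had control signals under it. The contrast between the gene groups could not be computed there and otherwise ran from 2.62 to 2.76. It and the ratios of Ctsh, Ctsc and Ctsk under that floor are therefore not among the 81. The number at least 2-fold higher was 2 at a 3-fold threshold and under both quantile normalization and loess correction. The limit for a count was a change of 1.5-fold, which this fall from 3 to 2 just met. Another 11 of the 81 values are the count of members lower, which was 0 throughout. Ctsh, Ctsc, Ctsk, Ctsd and Ctsl have 1 probe set each, so floor, filter and probe set choice left their ratios unchanged where measured. Median centring cannot change the contrast. The 80 values therefore overstate how far the results were tried. Ctse moved to -0.74 on its brightest probe set and under the 60th percentile floor, and to 0.82 without _x_at and _s_at probe sets. The median of the measured cathepsin genes ran from -0.35 to 0.08, that of the partner list from -0.20 to 0.06, of the sorting list from -0.02 to 0.09 and of the membrane list from -0.07 to 0.03, so the sign of these medians depends on the setting. Cst3 ran from -0.99 to -0.83, and Cd74 from -1.23 to -1.06 where measured. Over all genes, 605 were at least 2-fold higher with the floor at the 20th percentile and 45 with it at the 60th, against 141 as reported; 188 and 34 were lower, against 73. No paired analysis was possible because each clone has 1 array. Signals near the floor limit the ratios of Ctsh, Ctsc and Ctsk.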
